A study of Homo sapiens with 156 samples.

Results

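MV411 cells, an acute myeloid leukaemia line of monocytic character that carries a KMT2A fusion, were exposed to decitabine (DAC) at 400 nM or to its solvent DMSO, labelled 0 nM, and their RNA was sequenced on days 4 and 6. The late decitabine response was read from 8 of the 156 libraries of the series: 2 DAC libraries and 2 DMSO libraries on each of the days, chosen by their labels alone. All 8 came from the same line, plated before the agent was added and grown until the labelled day. The labels number the libraries of a group 1 and 2 but do not say whether these were separate cultures, so p-values measure the spread between libraries, which may be technical. In the comparison over both days that spread also holds any difference in effect between the days. A gene whose effect changed between the days can therefore be called on a day and not over both. GSK032 libraries of the same line, dose and days (GSK3685032, a non-nucleoside DNMT1 inhibitor) were set beside the decitabine response, and they are among the 52 MV411 libraries whose spread enters the effects by day. A level is given as FPKM (fragments per kilobase of transcript, scaled to sequencing depth), first for replicate 1 and then for replicate 2. A change is a difference of log2(FPKM + 0.5) with its standard error (SE). A gene was called where its limma p-value, adjusted over all 17967 genes tested, was under 0.05 and the change was at least 1 on the log2 scale.

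Decitabine is a deoxycytidine analog that is phosphorylated in the cell and built into DNA during S phase, where it traps the maintenance methyltransferase DNMT1 as a covalent adduct. Methylation is then diluted as cells divide, and genes silenced by promoter methylation, the X-linked germline antigens foremost, are known to be re-expressed over days. Amino acid shortage and other stresses raise translation of the transcription factor ATF4, which with C/EBP partners binds a composite element in the promoters of amino acid synthesis, transport and stress genes. UHRF1, the reader that brings DNMT1 to newly copied DNA, had 54.2 and 46.0 FPKM in DAC and 148 and 137 FPKM in DMSO on day 4. On day 6 UHRF1 had 47.6 and 45.8 FPKM in DAC and 158 and 175 FPKM in DMSO. DNMT1 RNA itself had 63.0 and 63.8 FPKM in DAC and 132 and 124 FPKM in DMSO on day 6 (log2 change −1.0 ± 0.09 SE, adjusted p = 4.8e-10), at the minimum of 1 and under it without replicate 1 of DMSO day 6 (−0.96). Decitabine acts on the DNMT1 protein, so the RNA level is no check of the labels.

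Over both days together, with day as a covariate, 1395 genes were higher (7.76% of those tested) and 729 lower (4.06%) in DAC than in DMSO, beside a median change of −0.04 over all genes tested. On day 4 the calls were 1357 higher (7.55%) and 716 lower (3.99%), and on day 6 they were 1369 higher (7.62%) and 852 lower (4.74%). Of these, 977 genes were called higher and 478 lower on both days. The decitabine effect itself differed between the days for 206 genes (1.15%): the day 6 effect was above the day 4 effect for 54 (0.301%) and below it for 152 (0.846%). Rescaling the 8 libraries to equal FPKM sums moved the median of all genes to −0.16 and the split of late calls to 1170 higher and 1003 lower, and on day 6 to 1047 higher and 1147 lower. The libraries had 14938 to 16714 genes at 1 FPKM or more, and DAC libraries had more such genes than DMSO libraries of the same day (16714 and 16611 against 15531 and 15848 on day 4, 15631 and 16001 against 14956 and 14938 on day 6). The RNA of the signal recognition particle, RN7SL1, took 17.7 to 18.8% of the FPKM sum in DAC libraries and 10.3 to 16.9% in DMSO libraries, and its part in the results was not tested.

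Genes of the ATF4 and amino acid stress list were lower in DAC, and by more on day 6 than on day 4. Of 33 tested members of this list, 0 were higher and 23 lower over both days, with a median change of −1.59. On day 4 the list had 15 members lower (median −0.92, beside −0.06 over all genes tested), and on day 6 it had 30 lower (median −2.13, beside −0.02). The difference between the days was called for 20 of the 33, every one of them with a larger deficit on day 6, and these 20 made up 20 of the 77 genes of any kind whose lower level in DAC grew. The count of 20 was 15 without replicate 2 of DAC day 6 and 1, DDIT3, when the 8 libraries alone set the spread, with the list's median difference at −1.25 to −1.53 over the fits that left out 1 library. No tested member of this list was called higher in DAC than in DMSO on either day. Within DAC, 0 of the 33 were called higher on day 6 than on day 4.

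PHGDH, the first enzyme of serine synthesis (ENSG00000092621, chromosome 1, 119648411 to 119744226, GENCODE 29 on hg38), had 7.99 and 7.44 FPKM in DAC and 43.7 and 42.2 FPKM in DMSO on day 4. On day 6 PHGDH had 6.52 and 5.51 FPKM in DAC and 201 and 95.9 FPKM in DMSO. The groups did not overlap on either day, the highest levels were those of DMSO on day 6, and the DMSO libraries of that day lay apart from each other. Its change was −2.40 ± 0.19 on day 4 and −4.42 ± 0.19 on day 6, and the difference of −2.02 ± 0.27 had an adjusted p of 4.9e-05. CHAC1, an enzyme that degrades glutathione (ENSG00000128965, chromosome 15, 40952962 to 40956519), had 3.06 and 3.98 FPKM in DAC and 4.69 and 4.32 FPKM in DMSO on day 4. On day 6 CHAC1 had 2.12 and 2.73 FPKM in DAC and 32.2 and 23.7 FPKM in DMSO. It was close in both groups on day 4 and far apart on day 6, with a difference of −2.95 ± 0.36 (adjusted p = 2.3e-05), the largest in size among the list's members.

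DDIT3, the stress transcription factor also named CHOP (ENSG00000175197, chromosome 12, 57516588 to 57521737), had 14.9 and 15.2 FPKM in DAC and 19.6 and 19.9 FPKM in DMSO on day 4. On day 6 DDIT3 had 13.6 and 14.2 FPKM in DAC and 60.0 and 61.5 FPKM in DMSO. Its difference of −1.71 (adjusted p = 0.00019) was also called when the 8 libraries alone set the spread (adjusted p = 0.024). TRIB3, a pseudokinase induced by ATF4 and DDIT3 (chromosome 20, 362835 to 397559), had 3.81 and 2.84 FPKM in DAC and 20.0 and 20.1 FPKM in DMSO on day 4, and 3.92 and 4.10 FPKM in DAC and 70.0 and 75.0 FPKM in DMSO on day 6. ASNS, which makes asparagine (chromosome 7, 97852118 to 97872542), had 15.1 and 15.8 FPKM in DAC and 32.3 and 29.1 FPKM in DMSO on day 4, and 15.9 and 15.9 FPKM in DAC and 122 and 72.5 FPKM in DMSO on day 6. For TRIB3 and ASNS, as for PHGDH, the DAC libraries of both days lay together below every DMSO library. The difference of TRIB3 (−1.58 ± 0.42) lost its call when any 1 of the 8 libraries was left out, at values of −1.39 to −1.76.

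**Figure D1:**
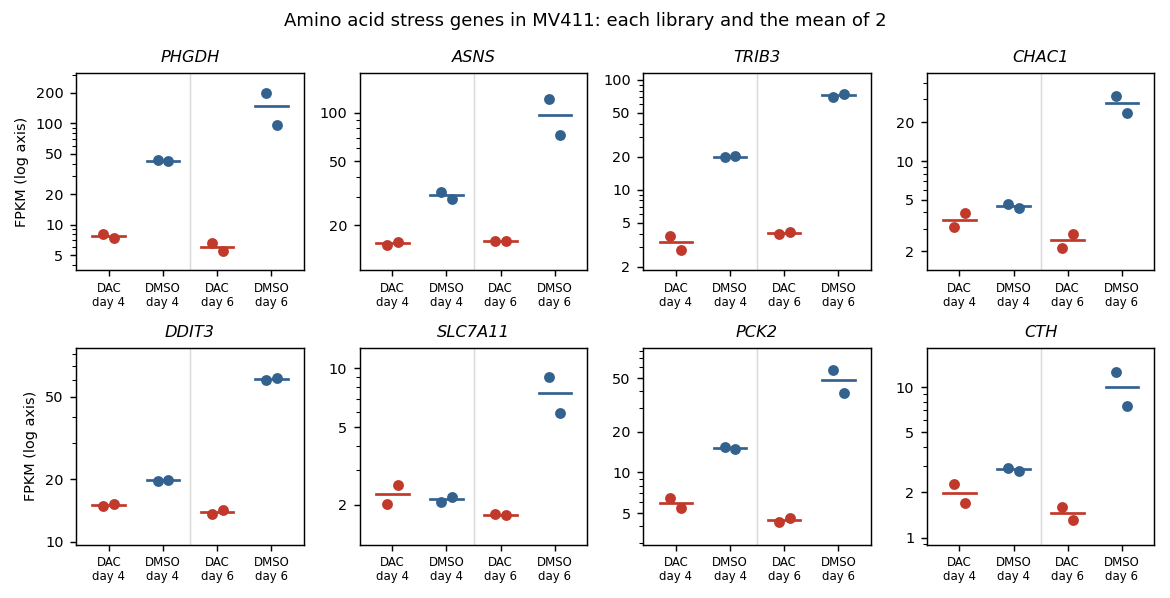
FPKM (log axis) of 8 amino acid stress genes in each DAC library (red, left of each pair) and DMSO library (blue) on days 4 and 6; points are the 2 libraries of a group and bars their mean. The DAC libraries stay low on both days, and the DMSO libraries of day 6 are the highest in all 8 panels, as for TRIB3 with 70.0 and 75.0 FPKM.

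Other amino acid genes of the list differed in when they were first called. CBS, which condenses serine with homocysteine, had 1.64 and 1.95 FPKM in DAC and 8.87 and 9.04 FPKM in DMSO on day 4, and 1.24 and 1.06 FPKM in DAC and 27.1 and 19.5 FPKM in DMSO on day 6. CTH, the next enzyme towards cysteine, had 2.25 and 1.70 FPKM in DAC and 2.92 and 2.75 FPKM in DMSO on day 4, and 1.61 and 1.31 FPKM in DAC and 12.6 and 7.52 FPKM in DMSO on day 6. CBS was called lower on both days, whereas CTH was called on day 6 alone, with a difference of −1.96 ± 0.30 (adjusted p = 0.00035). PCK2, the mitochondrial phosphoenolpyruvate carboxykinase, had 6.47 and 5.41 FPKM in DAC and 15.4 and 15.0 FPKM in DMSO on day 4, and 4.33 and 4.62 FPKM in DAC and 57.0 and 39.1 FPKM in DMSO on day 6. SLC7A11, the cystine importer, had 2.03 and 2.52 FPKM in DAC and 2.07 and 2.19 FPKM in DMSO on day 4. On day 6 it had 1.8 and 1.77 FPKM in DAC and 9.05 and 5.90 FPKM in DMSO. SLC7A11 overlapped between the groups on day 4 and not on day 6 (difference −1.85 ± 0.24, adjusted p = 4.8e-05). Further members with a called difference were the peptide hormone gene ADM2 (−1.98 ± 0.33), the mitochondrial folate enzyme ALDH1L2 (−1.72), the leucine sensor SESN2 (−1.52) and ATF3 (−1.27), whose call was lost without any 1 of 6 libraries at −1.03 to −1.40. ATF4 RNA had 111 and 98.9 FPKM in DAC and 254 and 232 FPKM in DMSO on day 4, and 136 and 128 FPKM in DAC and 525 and 488 FPKM in DMSO on day 6. It was called lower in DAC on both days, while its difference of −0.73 was not called (adjusted p = 0.051). Of the list, CEBPB, VLDLR and ALDH18A1 were not called lower on either day, with changes of 0.34, −0.61 and −0.14 on day 6.

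The growth of the effect lay in the DMSO arm. From day 4 to day 6, 27 of the 33 members rose in DMSO (median 1.25, beside 0.07 over all genes tested, of which 1.47% rose and 2.83% fell). In DAC 0 of the 33 rose and 1, GDF15, fell, with a median of 0.03 beside 0.13 over all genes tested, of which 0.495% rose and 2.83% fell. The list's count of rises in DMSO was 19 without replicate 1 of DMSO day 6 and 28 without replicate 2. It was 19 when libraries were rescaled to equal sums and 23 when the 8 libraries alone set the spread. The mean log2(FPKM + 0.5) of the list in DAC libraries was 3.55 and 3.58 on day 1, 3.37 and 3.44 on day 2, 3.16 and 3.09 on day 4, and 3.11 and 3.06 on day 6. In DMSO it was 3.68 and 3.89 on day 1, 3.87 and 3.83 on day 2, 4.00 and 3.96 on day 4, and 5.41 and 5.11 on day 6. In DAC the list was lower on day 4 than on days 1 and 2, and its libraries of days 4 and 6 overlapped. In DMSO it was near its starting level until day 4, with the step between days 4 and 6. GSK032 libraries had 3.69 and 3.86 on day 1, 3.81 and 3.63 on day 2, where DAC libraries lay lower, 3.05 and 2.90 on day 4, and 3.03 and 3.00 on day 6. Against DMSO, GSK032 had 21 of the 33 members lower on day 4 (all genes tested: 3.31% lower, 6.22% higher) and 31 on day 6 (all genes tested: 5.14% lower, 8.24% higher), with the same DMSO libraries in both comparisons. Set directly against GSK032 on day 6, 0 of the 33 members were called higher or lower in DAC (median difference 0.04).

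**Figure D2:**
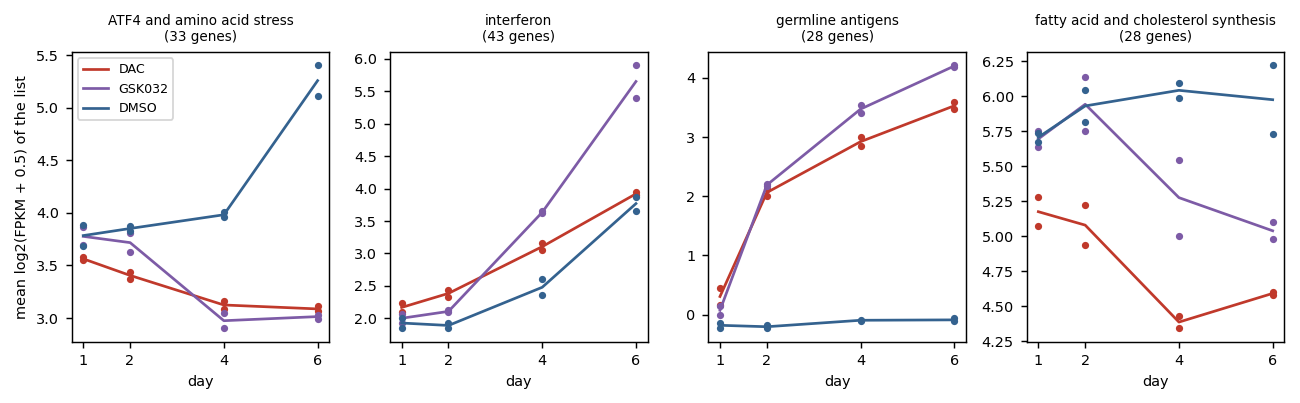
Mean log2(FPKM + 0.5) of 4 gene lists by day in DAC (red), GSK032 (purple) and DMSO (blue) libraries of MV411; points are libraries and lines join the means of 2. Amino acid stress genes step up in DMSO on day 6 to 5.41 and 5.11, interferon genes climb in every arm, germline antigens climb in both treated arms, and lipid synthesis genes stay low in DAC.

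Promoters of the list were searched because the ATF4 element is known from ASNS. The letters TGATGNAA were looked for on both strands in RefSeq promoter windows of GRCh38.p14, which run from 250 bases before to 50 after each start. They were present in 4 of the 24 list members that have a window in the table, 16.7%, against 1.63% of the 9895 tested genes with a window and 3.62% of all 35116 windows. The 4 were ASNS, ATF3, CHAC1 and SLC3A2. For a gene with several windows only the first listed was searched, save in the share of all windows. The list was drawn up around ATF4, so a higher share was likely before these data were seen and is no result of them. Among the 140 genes with a window that rose in DMSO from day 4 to day 6, 6.43% held the letters. Since 27 of the 33 tested list members rose in DMSO, these genes overlap the list, and their share is no separate result. The windows of the 3 members whose effect grew on day 6 are given below with the matched letters in capitals (ASNS chr7:97872359-97872658, minus strand; CHAC1 chr15:40953221-40953520, plus strand; ATF3 chr1:212565157-212565456, plus strand), read in the direction of transcription. A match of letters is a description and not a measured binding site.
ASNS: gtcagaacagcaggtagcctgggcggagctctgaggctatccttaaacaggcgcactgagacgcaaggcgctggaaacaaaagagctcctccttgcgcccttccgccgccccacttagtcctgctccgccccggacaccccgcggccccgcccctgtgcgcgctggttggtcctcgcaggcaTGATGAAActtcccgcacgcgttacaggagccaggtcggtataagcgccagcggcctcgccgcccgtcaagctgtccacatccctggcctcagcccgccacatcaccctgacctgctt
CHAC1: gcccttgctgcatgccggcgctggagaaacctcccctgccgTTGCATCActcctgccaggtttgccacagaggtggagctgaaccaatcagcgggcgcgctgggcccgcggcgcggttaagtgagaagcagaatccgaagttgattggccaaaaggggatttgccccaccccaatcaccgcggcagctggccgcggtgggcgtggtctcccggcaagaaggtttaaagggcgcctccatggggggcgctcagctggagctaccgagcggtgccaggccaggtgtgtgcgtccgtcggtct
ATF3: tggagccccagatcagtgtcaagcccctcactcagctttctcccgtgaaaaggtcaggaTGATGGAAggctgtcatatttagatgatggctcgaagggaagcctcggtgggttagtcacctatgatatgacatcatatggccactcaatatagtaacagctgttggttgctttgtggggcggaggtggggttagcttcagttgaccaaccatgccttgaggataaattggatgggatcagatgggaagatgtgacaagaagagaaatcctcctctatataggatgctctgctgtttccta
The match lies 68 bases before the start in ASNS, 209 bases before it in CHAC1, on the opposite strand, and 191 bases before it in ATF3.

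The other stress lists are given beside the share of all genes tested over both days, 7.76% higher and 4.06% lower, and single calls in a list of this size are near it. The unfolded protein response list had 0 of 20 members higher and 1 lower over both days, XBP1, with 97.7 and 83.9 FPKM in DAC and 275 and 285 FPKM in DMSO on day 4 and a difference between days of 0.07. The heat shock list had 1 of 13 lower over both days, the mitochondrial chaperonin HSPD1, and 0 higher. On day 4 it had 5 lower (median −0.84) and on day 6 it had 0 (median −0.285). Over all genes tested 3.99% and 4.74% were lower on these days. None of its differences between the days was called, but 0 of the 13 were below 0 (median 0.54, beside 0.06 over all genes tested). The NRF2 and iron list had 4 of 19 higher, NQO1, PIR, PGD and the haem-degrading HMOX1. HMOX1 had 9.29 and 9.86 FPKM in DAC and 0.778 and 1.45 FPKM in DMSO on day 4, and 17.0 and 14.3 FPKM in DAC and 2.35 and 3.19 FPKM in DMSO on day 6. It was higher in DAC on both days with no called difference between them (−0.36). Of the metallothioneins 1 of 9 was called, MT1H, with 42.8 and 33.2 FPKM in DAC and 6.31 and 7.68 FPKM in DMSO on day 4, and 24.4 and 32.4 FPKM in DAC and 1.53 and 2.25 FPKM in DMSO on day 6.

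The following counts too stand beside 7.76% higher and 4.06% lower over all genes tested, and those of the cyclin and BCL2 lists are near it or rest on a few genes. Of 17 cyclins and cell cycle brakes 2 were higher (CDKN1C and CDKN2B) and 3 lower (CDK4, E2F2 and E2F8). Of 30 p53 target genes 5 were higher, PLK2, TP53INP1, SPATA18, ZMAT3 and BTG2, and 1 lower, SESN2, which is also a member of the ATF4 list. PLK2 had 50.6 and 55.8 FPKM in DAC and 10.8 and 9.99 FPKM in DMSO on day 4, and 37.0 and 40.0 FPKM in DAC and 10.1 and 9.49 FPKM in DMSO on day 6. The BCL2 family list had BCL2L11, a killer of the family, higher (1.19) and BCL2, its survival partner, lower (−1.0) among 19. The lysosome and autophagy list had 5 of 22 higher, among them the cathepsins CTSD (1.02) and CTSB (1.06) and their regulator TFEB (1.36). The hypoxia and glycolysis list had 1 of 21 higher and 8 lower. The lower ones were led by the glucose transporter SLC2A3, with 4.25 and 4.99 FPKM in DAC and 14.8 and 17.1 FPKM in DMSO on day 4, and 5.21 and 4.83 FPKM in DAC and 21.6 and 26.7 FPKM in DMSO on day 6. VEGFA, in the same list, was called lower on day 6 and not on day 4, and it rose in DMSO between the days (difference −1.17). Of 20 NF-kB and inflammation genes 3 were higher (CCL2, CCL4 and TNFAIP2) and 2 lower (CCL5 and TNFAIP3). Over all these stress lists, the chemokine CCL4 was the member whose higher level in DAC grew on day 6 (difference called above 0). CCL4 was not taken by the rule for named genes, which asked for a mean of at least 3 FPKM in a group. When the 8 libraries alone set the spread, 0 genes of any kind grew higher.

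**Figure D3:**
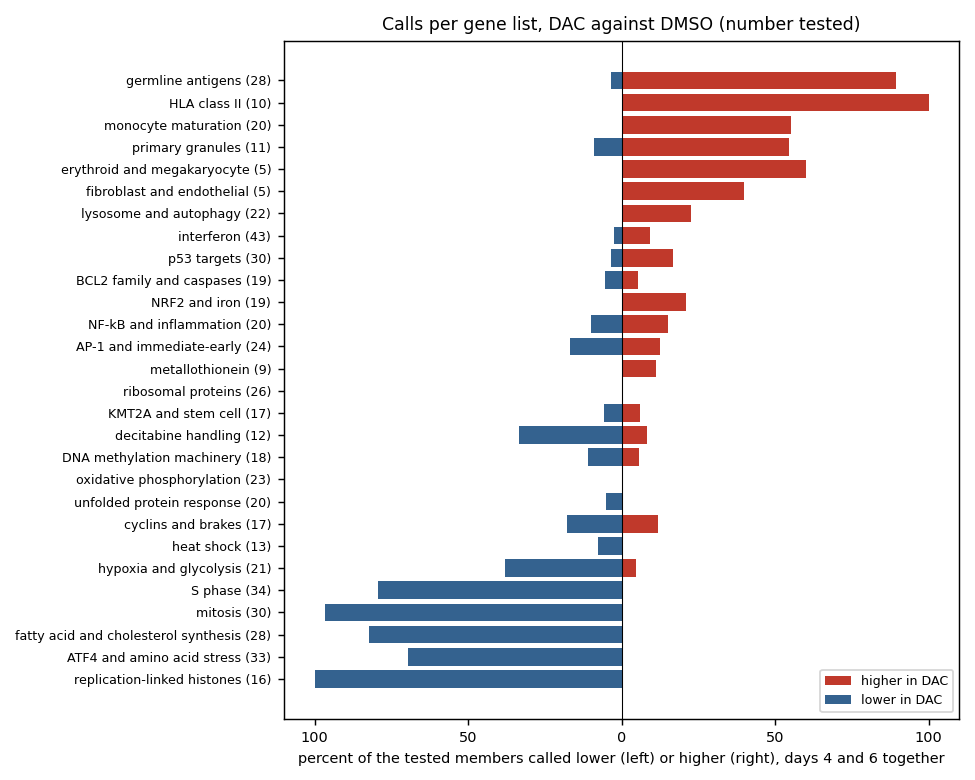
Percent of the tested members of each gene list of 5 or more that were called higher (red, right of 0) or lower (blue, left of 0) in DAC over days 4 and 6, with the number tested in brackets and lists ordered by median change. Germline antigens (25 of 28 higher) and class II genes (10 of 10 higher) stand at the top, and replication-linked histones (16 of 16 lower) and ATF4 genes (23 of 33 lower) at the bottom.

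Genes whose higher level in DAC grew by day 6 numbered 49 (0.273% of the genes tested), and 25 of them were not called on day 4. The count was 31 without replicate 1 of DAC day 6, 17 with equal sums and 0 when the 8 libraries alone set the spread. In 16 of the 49 the DMSO arm changed by more than the DAC arm. PRG2, the major basic protein of eosinophil granules (ENSG00000186652, chromosome 11, 57386794 to 57390657), had 20.9 and 23.3 FPKM in DAC and 1.37 and 0.907 FPKM in DMSO on day 4. On day 6 PRG2 had 84.7 and 96.5 FPKM in DAC and 0.755 and 0.605 FPKM in DMSO. It rose by 2.01 ± 0.44 within DAC, and the effect on day 6 exceeded that on day 4 by 2.47 ± 0.62 (adjusted p = 0.024). PTGDS, a prostaglandin D synthase (chromosome 9, 136975092 to 136981742), had 4.74 and 3.88 FPKM in DAC and 0.436 and 0.663 FPKM in DMSO on day 4, and 17.4 and 18.1 FPKM in DAC and 0.129 and 0.345 FPKM in DMSO on day 6. H19, an imprinted long noncoding RNA (chromosome 11, 1995176 to 2001470), had 3.74 and 4.37 FPKM in DAC and 0.166 and 0.161 FPKM in DMSO on day 4, and 18.5 and 12.7 FPKM in DAC and 0.178 and 0.203 FPKM in DMSO on day 6. In all of these the DMSO libraries stayed low on both days. The difference of PRG2 lost its call without any 1 of 6 libraries (2.27 to 2.57), and that of H19 without any 1 of 5 (1.48 to 1.77).

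Of the 28 tested germline antigens 6 rose and 1 fell within DAC between the days (0.495% and 2.83% of all genes tested), and 4 had a called difference, all above 0 (0.301% of all genes tested). CT45A3, of a family on the X chromosome, had 10.1 and 8.77 FPKM in DAC on day 4 and 29.6 and 24.0 FPKM in DAC on day 6, and at most 0.136 FPKM in DMSO. PAGE2 had 14.0 and 16.7 FPKM in DAC on day 4 and 39.2 and 34.7 FPKM in DAC on day 6, and at most 0.104 FPKM in DMSO. GAGE1, CT45A5 and PAGE5 grew too, with differences of 1.62, 1.76 and 1.08. The growing genes of these families named here are not all members of the list of 28, where 4 differences were called. Members of these families are near-identical copies, so fragments may be split among them and the level of a single copy is uncertain. The difference of PAGE2 lost its call without any 1 of the 8 libraries (1.08 to 1.36) and that of PAGE5 without any 1 of 7. CILP2, a cartilage matrix protein gene, had 2.44 and 2.18 FPKM in DAC and 0.342 and 0.289 FPKM in DMSO on day 4, and 6.13 and 6.52 FPKM in DAC and 0.197 and 0.307 FPKM in DMSO on day 6. Z83844.1, a noncoding gene of chromosome 22, was listed at 0 in both DAC libraries of day 4 and had 81.5 and 67.3 FPKM in DAC on day 6. It had 54.5 FPKM in replicate 1 of DMSO day 4 and was listed at 0 in the other DMSO libraries, so its called difference rests on a gene that appears and disappears between replicates.

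For CD38 and CD1D the DMSO level fell, while their change within DAC was not called. CD38, an enzyme that consumes NAD at the surface of maturing leukocytes (chromosome 4, 15778275 to 15853230), had 11.4 and 9.73 FPKM in DAC and 3.68 and 4.25 FPKM in DMSO on day 4. On day 6 CD38 had 10.6 and 12.9 FPKM in DAC and 0.704 and 0.804 FPKM in DMSO (difference 1.98 ± 0.25, adjusted p = 3.7e-05; DMSO arm −1.83 ± 0.18). CD1D, which presents lipid antigens, had 20.7 and 20.3 FPKM in DAC and 5.89 and 6.69 FPKM in DMSO on day 4, and 22.4 and 23.4 FPKM in DAC and 2.24 and 2.38 FPKM in DMSO on day 6. LYZ, the lysozyme of monocytes and granulocytes, had 2172 and 1784 FPKM in DAC and 809 and 677 FPKM in DMSO on day 4, and 2573 and 2503 FPKM in DAC and 366 and 409 FPKM in DMSO on day 6. In LYZ neither arm's own change was called (0.37 in DAC and −0.94 in DMSO), and their difference of 1.3 was. HLA-DRA behaved likewise, with 131 and 153 FPKM in DAC and 16.5 and 16.1 FPKM in DMSO on day 4, and 197 and 176 FPKM in DAC and 9.14 and 8.78 FPKM in DMSO on day 6 (difference 1.22), a call that was lost with equal sums and without any 1 of 3 libraries (1.11 to 1.19).

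**Figure D4:**
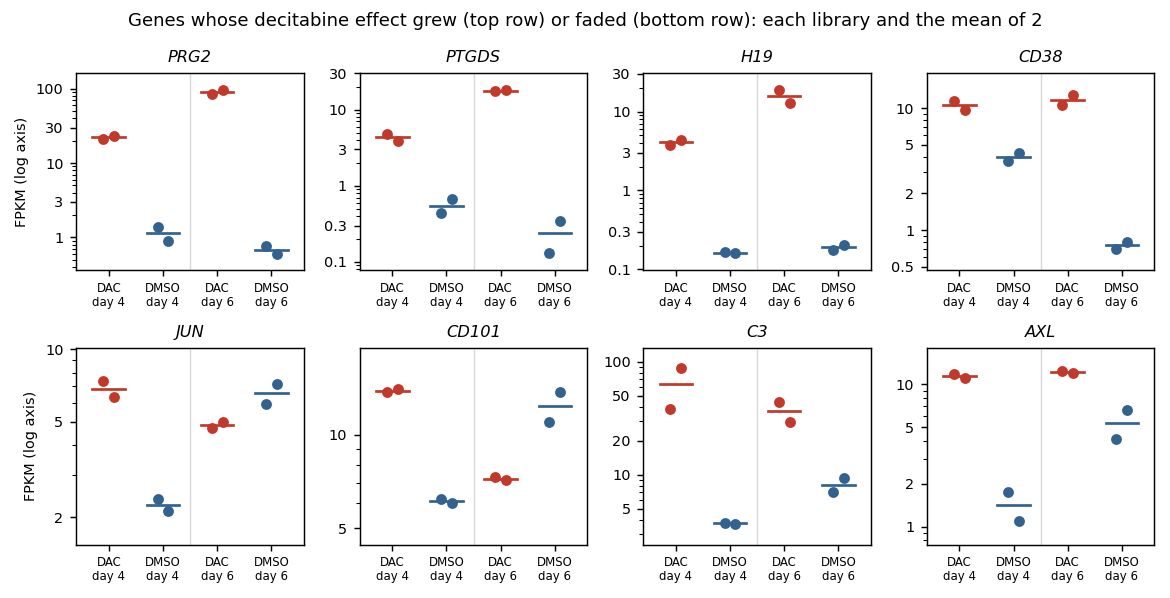
FPKM (log axis) of 4 genes whose decitabine effect grew (top) and 4 whose effect faded (bottom) in each DAC library (red, left of each pair) and DMSO library (blue) on days 4 and 6; points are libraries and bars the mean of 2. PRG2, PTGDS and H19 rise in DAC, CD38 falls in DMSO to 0.704 and 0.804 FPKM, and JUN, C3 and AXL rise in DMSO, and CD101 is highest in DAC on day 4 and in DMSO on day 6 among these groups.

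Genes whose higher level in DAC on day 4 faded by day 6 numbered 44 (0.245%), and in 31 of them the DMSO arm changed by more than the DAC arm. The count was 28 without replicate 2 of DAC day 4, 25 without replicate 1 of DAC day 6, 26 without replicate 2 of DMSO day 4, 23 without replicate 2 of DMSO day 6 and 0 when the 8 libraries alone set the spread. JUN, a subunit of the AP-1 transcription factor (chromosome 1, 58780788 to 58784327), had 7.35 and 6.30 FPKM in DAC and 2.38 and 2.13 FPKM in DMSO on day 4. On day 6 JUN had 4.70 and 4.96 FPKM in DAC and 5.93 and 7.17 FPKM in DMSO, so the DAC libraries lay above DMSO on day 4 and below it on day 6. Its change was 1.41 ± 0.21 on day 4 and −0.40 ± 0.21 on day 6, which was not called, with a difference of −1.81 ± 0.30 (adjusted p = 0.00083). ZFP36L1, which speeds decay of AU-rich mRNAs, had 4.83 and 7.70 FPKM in DAC and 1.07 and 1.23 FPKM in DMSO on day 4, and 4.29 and 3.79 FPKM in DAC and 3.24 and 4.65 FPKM in DMSO on day 6. The groups of ZFP36L1 overlapped on day 6.

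CD101, an immunoglobulin-family surface protein of myeloid cells (chromosome 1, 117001750 to 117036476), had 13.7 and 14.1 FPKM in DAC and 6.21 and 6.00 FPKM in DMSO on day 4. On day 6 CD101 had 7.28 and 7.13 FPKM in DAC and 11.0 and 13.7 FPKM in DMSO (DAC arm −0.90 ± 0.15, DMSO arm 0.95 ± 0.15, difference −1.85 ± 0.22, adjusted p = 1.0e-05). Neither arm's change reached the minimum of 1 on the log2 scale. C3, the central complement protein, had 38.6 and 87.9 FPKM in DAC and 3.77 and 3.68 FPKM in DMSO on day 4, and 43.8 and 29.6 FPKM in DAC and 6.98 and 9.31 FPKM in DMSO on day 6. AXL, a receptor tyrosine kinase, had 11.9 and 11.1 FPKM in DAC and 1.75 and 1.1 FPKM in DMSO on day 4, and 12.4 and 12.0 FPKM in DAC and 4.15 and 6.55 FPKM in DMSO on day 6. C3 and AXL stayed higher in DAC on both days, and for AXL the level in DAC hardly moved (0.08 ± 0.21). The difference of C3 lost its call without any 1 of 5 libraries and was −1.12 without replicate 2 of DAC day 4, and that of AXL lost its call without replicate 2 of DMSO day 6 (−1.22).

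The adhesion molecule CADM1 (difference −1.72), the secreted CRISPLD2 (−1.66), the selenoprotein SELENOM (−1.64), the stress regulator GADD45G (−1.64) and the small G protein RASD1 (−1.61) faded as well. RASD1 had 11.7 and 10.7 FPKM in DAC and 0.351 and 0.327 FPKM in DMSO on day 4, and 8.43 and 8.51 FPKM in DAC and 1.75 and 1.22 FPKM in DMSO on day 6. CDKN1C, an imprinted inhibitor of cyclin-dependent kinases, had 15.2 and 17.8 FPKM in DAC and 0.751 and 0.725 FPKM in DMSO on day 4, and 19.4 and 16.4 FPKM in DAC and 2.74 and 2.62 FPKM in DMSO on day 6. It stayed higher in DAC on both days, and its difference of −1.25 came with a rise of 1.36 in DMSO. That difference lost its call without any 1 of the 8 libraries (−1.13 to −1.37), and the difference of SELENOM without any 1 of 7 (−1.34 to −1.71). The differences of RASD1 (−1.42 to −1.60) and GADD45G (−1.26 to −1.55) lost theirs without any 1 of 4 libraries. Of 24 AP-1 and immediate-early genes over both days, 3 were higher (FOSB, KLF4 and DUSP1) and 4 lower (KLF6, MYC, EGR3 and DUSP6), beside 7.76% and 4.06% of all genes tested. On day 4 the list had 5 higher and 4 lower (median 0.244; all genes tested: 7.55% and 3.99%). On day 6 it had 1 higher and 5 lower (median −0.305; all genes tested: 7.62% and 4.74%). A difference between the days was called for 3 of the 24, all below 0, beside 0.846% of all genes tested. Genes lower in DAC on day 4 whose deficit faded numbered 3 (0.0167%), all small noncoding RNA genes (RF00404, RNU7-18P and MIR5197, named after their values were seen).

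**Figure D5:**
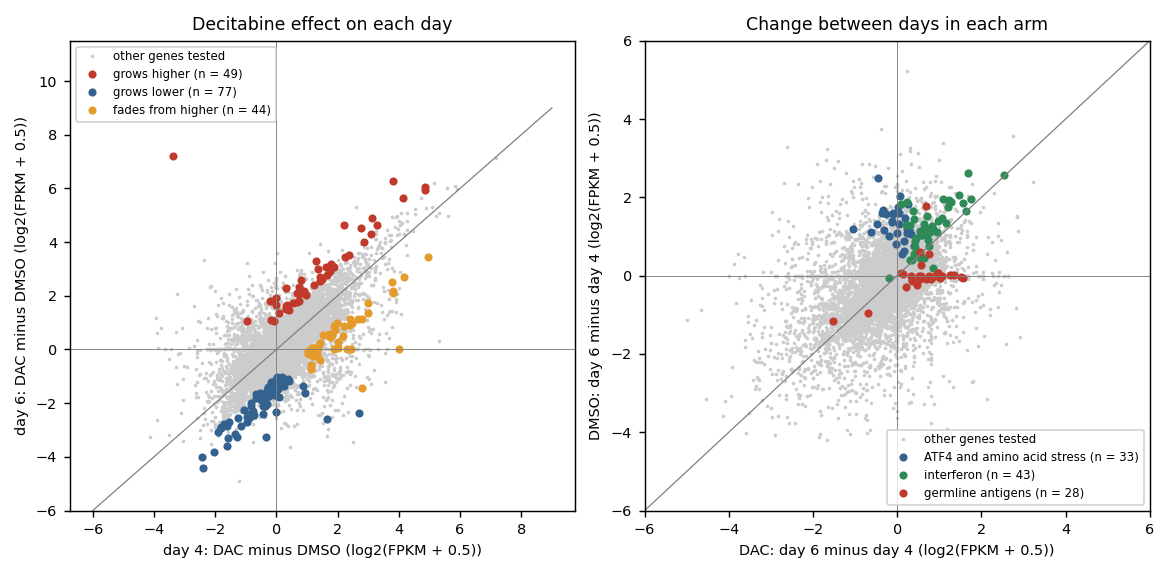
Left, decitabine effect (DAC minus DMSO, log2(FPKM + 0.5)) of each tested gene on day 4 (x) and day 6 (y), with 49 genes that grew higher in red, 77 that grew lower in blue and 44 that faded from higher in orange; the point at the top left is Z83844.1. Right, change from day 4 to day 6 in DAC (x) and in DMSO (y) for the same genes, where ATF4 genes (blue) lie along the DMSO axis, germline antigens (red) mostly along the DAC axis and interferon genes (green) mostly above 0 on both; lines mark equality and 0, and genes of the Y chromosome are not drawn.

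Over the 206 called differences, the DMSO arm alone was called in 105, the DAC arm alone in 38, both in 2 and neither in 61. The DMSO arm led most often among the 77 genes that grew lower (0.429% of the genes tested), where the DMSO arm changed by more in 73. The 77 became 41 with a filter at 5 FPKM and 2 when the 8 libraries alone set the spread. Between days 4 and 6 the arms as a whole had 89 genes higher and 508 lower in DAC, and 265 higher and 509 lower in DMSO. Rescaling to equal sums gave 26 higher and 507 lower in DAC, and 141 higher and 531 lower in DMSO. The 508 lower in DAC became 193 without replicate 1 of DAC day 6 and 225 without replicate 2 of DAC day 4. The 509 lower in DMSO became 168 without replicate 2 of DMSO day 4 and 205 without replicate 2 of DMSO day 6. Across 18 settings the ATF4 list had 19 to 28 members higher and 0 lower in DMSO on day 6 against day 4.

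Interferon-stimulated genes, which carry out the antiviral response, had rises and no falls between the days in both arms. In DAC 13 of 43 rose (median 0.73) and in DMSO 30 of 43 rose (median 1.3), beside 0.495% and 1.47% of all genes tested. Against DMSO, 4 were higher in DAC over both days, IFI27, IFI6, IFITM3 and LGALS3BP, and 1 lower, the chemokine CXCL10, with a list median of 0.32. These shares are near those of all genes tested, 7.76% higher and 4.06% lower. IFI27 had 17.8 and 20.5 FPKM in DAC and 1.58 and 0.927 FPKM in DMSO on day 4, and 112 and 114 FPKM in DAC and 8.96 and 10.7 FPKM in DMSO on day 6. Its effect was of like size on the days (3.51 and 3.46, difference −0.05) although its level rose in both arms. OASL, an OAS relative without synthetase activity, had 3.05 and 2.82 FPKM in DAC and 1.75 and 1.06 FPKM in DMSO on day 4, and 3.34 and 3.68 FPKM in DAC and 5.48 and 7.36 FPKM in DMSO on day 6. OASL, CXCL10, GBP2, HERC5 and XAF1 were the 5 of 43 with a called difference between the days, all below 0. The call of CXCL10 over both days, at 0.521 to 1.46 FPKM in DAC and 0.862 to 7.22 FPKM in DMSO, was lost in 10 of the alternatives tried.

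Among the genes called on both days and in every fit that left out 1 library, the largest rises were of genes near 0 in DMSO. TKTL1, a transketolase relative of germ cells (ENSG00000007350, chromosome X, 154295671 to 154330350), had 174 and 158 FPKM in DAC and 0.683 and 0.608 FPKM in DMSO on day 4, and 273 and 214 FPKM in DAC and 1.59 and 0.930 FPKM in DMSO on day 6. Its late change was 7.16 ± 0.13 (adjusted p = 6.1e-07). MAGEA4, a melanoma antigen gene, had 100 and 89.7 FPKM in DAC and 1.1 and 1.2 FPKM in DMSO on day 4, and 166 and 156 FPKM in DAC and 2.09 and 1.73 FPKM in DMSO on day 6. STAB1, a scavenger receptor of macrophages and endothelium (ENSG00000010327, chromosome 3, 52495338 to 52524495), had 44.6 and 47.0 FPKM in DAC and 0.522 and 0.414 FPKM in DMSO on day 4, and 67.9 and 75.1 FPKM in DAC and 0.672 and 0.556 FPKM in DMSO on day 6. PNMA5 (late change 5.93 ± 0.08) and PAGE2B (5.68 ± 0.21) rose as well. Of 28 tested germline antigens 25 were higher and 1, TEX15, lower, with a median of 3.17, and 13 further members of the list did not pass the filter on low values. Since a germline gene silent in DMSO passed that filter through its DAC libraries, the count describes the tested members and not all of the list.

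CpG sites, the substrate of DNMT1, were counted in the same RefSeq windows. The median window held 19 CpG sites in the 693 windows of genes higher over both days, 26 in the 400 windows of genes lower, and 26 in all 9895 tested windows. The medians of the observed over expected ratio of CpG were 0.66, 0.87 and 0.84 in these sets. No methylation was measured here. The windows of TKTL1 (chrX:154295545-154295844, plus strand, 18 CpG) and STAB1 (chr3:52495088-52495387, plus strand, 13 CpG) are shown, with each CpG in capitals, as the promoters of the germline and the myeloid gene with the largest rise.
TKTL1: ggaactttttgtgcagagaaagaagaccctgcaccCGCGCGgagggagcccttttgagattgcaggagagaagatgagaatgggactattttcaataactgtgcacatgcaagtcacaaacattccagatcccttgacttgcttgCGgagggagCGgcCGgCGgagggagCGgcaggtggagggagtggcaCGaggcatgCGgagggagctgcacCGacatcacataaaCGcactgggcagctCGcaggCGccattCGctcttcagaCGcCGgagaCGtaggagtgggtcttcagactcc
STAB1: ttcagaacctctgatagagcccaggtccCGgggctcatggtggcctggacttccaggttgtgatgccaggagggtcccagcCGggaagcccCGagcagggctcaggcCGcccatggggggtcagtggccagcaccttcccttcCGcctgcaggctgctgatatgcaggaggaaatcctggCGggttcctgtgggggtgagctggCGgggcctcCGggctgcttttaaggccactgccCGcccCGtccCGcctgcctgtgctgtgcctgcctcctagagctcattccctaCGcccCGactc

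Class II antigen presentation genes were higher on both days, and myeloid maturation genes in part. The counts over both days stand beside 7.76% higher and 4.06% lower over all genes tested, with like shares on each day. All 10 tested class II genes were higher in DAC over both days and on each (median 2.49), from CD74, the invariant chain, at 1.62 to HLA-DPA1 at 4.45. HLA-DMB, HLA-DQA1 and HLA-DPB1 were under 1 FPKM in every DMSO library of these days. Those genes passed the filter on low values through their DAC libraries, so the count describes the tested members only. The class II activator CIITA had 15.2 and 18.8 FPKM in DAC and 2.82 and 3.46 FPKM in DMSO on day 4, and 11.9 and 14.0 FPKM in DAC and 2.19 and 2.32 FPKM in DMSO on day 6. Of 20 monocyte maturation genes 11 were higher and 0 lower over both days, with 9 higher and 0 lower on day 4 and 8 higher and 1 lower on day 6, among them ITGAM (2.53), CYBB (2.55) and CD68 (2.38). Of 11 primary granule genes 6 were higher and 1, CTSG, lower over both days, with 2 higher and 1 lower on day 4 and 6 higher and 1 lower on day 6. MPO, the myeloperoxidase of these granules, had 17.8 and 12.4 FPKM in DAC and 3.40 and 2.45 FPKM in DMSO on day 4, and 20.1 and 23.9 FPKM in DAC and 3.03 and 3.12 FPKM in DMSO on day 6. SRGN, the granule proteoglycan, was called on day 6 only (2.17, against 0.90 on day 4), with a called difference of 1.28. Of 17 tested KMT2A and stem cell genes 1 was higher over both days, the receptor KIT, and 1 lower, MYC. The median of that list was −0.34, with 13 of the 17 changes below 0. KIT had 6.46 and 10.4 FPKM in DAC and 0.983 and 1.35 FPKM in DMSO on day 4, and 14.4 and 10.7 FPKM in DAC and 0.879 and 1.01 FPKM in DMSO on day 6.

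Most markers of other lineages did not pass the filter on low values: 10 of 15 erythroid and megakaryocyte, 12 of 16 T and NK cell, 7 of 11 B cell, 11 of 16 fibroblast and endothelial and 9 of 12 epithelial genes. The counts below therefore cover few genes, beside 7.76% higher and 4.06% lower over all genes tested. In the list of erythroid and megakaryocyte genes 3 of 5 tested were higher (NFE2, ITGA2B and KLF1) and its summed level was 39.8 to 62.0 FPKM in DAC and 17.2 to 21.8 FPKM in DMSO. Among T and NK cell genes 2 of 4 tested were higher, CD7 and GNLY, with sums of 93.6 to 153 FPKM in DAC and 73.2 to 117 FPKM in DMSO. GNLY was under 1 FPKM in every DMSO library of these days and passed the filter through its DAC libraries. Of 4 tested B cell genes 2 were higher (BLK and CD79B) and 1 lower (IGLL1), with sums of 13.4 to 18.2 FPKM in DAC and 7.76 to 28.4 FPKM in DMSO. Fibroblast and endothelial genes (2 of 5 tested higher) and epithelial genes (1 of 3) showed sums of 64.5 to 101 and 19.3 to 23.4 FPKM in DAC, beside 27.8 to 46.7 and 12.5 to 31.3 FPKM in DMSO. The sums of the T and NK cell, B cell and epithelial genes overlapped between DAC and DMSO. In bulk RNA a few cells with much of a transcript cannot be told apart from many cells with little, and the part of other cell types was not tested.

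Most lipid synthesis genes tested were lower in DAC on both days. Of 28 tested genes of fatty acid and cholesterol synthesis 0 were higher and 23 lower over both days (median −1.44), and 0 had a called difference between the days. The difference was nevertheless above 0 in all but 2 of the 28, with a median of 0.28 beside 0.06 over all genes tested, and 24 were lower on day 4 and 21 on day 6. The count on day 6 was 15 to 24 over the settings tried, and the list's median difference was −0.04 to 0.53, so its direction was not settled. The mean log2(FPKM + 0.5) of the list in DMSO was 5.99 and 6.10 on day 4, and 5.73 and 6.22 on day 6. SCD, the stearoyl-CoA desaturase, had 12.7 and 11.1 FPKM in DAC and 133 and 151 FPKM in DMSO on day 4, and 14.0 and 13.2 FPKM in DAC and 114 and 146 FPKM in DMSO on day 6 (late change −3.36 ± 0.11, adjusted p = 6.5e-06). FADS2, a desaturase of polyunsaturated fatty acids, had 18.3 and 13.1 FPKM in DAC and 139 and 128 FPKM in DMSO on day 4, and 16.3 and 16.7 FPKM in DAC and 135 and 241 FPKM in DMSO on day 6. Other genes low on both days were BCAT1, which transaminates branched-chain amino acids (−2.74 ± 0.16), the neuropeptide gene GAL (−2.74 ± 0.18) and MIR210HG, the host transcript of a hypoxia-induced microRNA (−2.89 ± 0.25). MIR210HG had 0.601 and 0.670 FPKM in DAC and 5.34 and 6.42 FPKM in DMSO on day 4, and 0.632 and 1.08 FPKM in DAC and 9.37 and 17.0 FPKM in DMSO on day 6.

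Most cell cycle genes tested were lower in DAC. The counts over both days given here stand beside 7.76% higher and 4.06% lower over all genes tested. In the mitosis list 29 of 30 were lower and 0 higher, in the S phase list 27 of 34 were lower and 0 higher, and all 16 tested replication-linked histone genes were lower (median −1.85). PLK1, a mitotic kinase, had 16.8 and 13.6 FPKM in DAC and 43.4 and 40.0 FPKM in DMSO on day 4, and 10.2 and 10.3 FPKM in DAC and 44.8 and 47.2 FPKM in DMSO on day 6. Of the genes on these 3 lists, HIST1H2BJ alone had a called difference between the days (−1.16), and that call was lost without any 1 of 6 libraries (−0.99 to −1.24). The differences were below 0 in all 16 histone genes, with a list median of −0.76, and in all 30 mitosis genes, with a median of −0.40. MYC had 78.9 and 68.4 FPKM in DAC and 184 and 186 FPKM in DMSO on day 4, and 99.3 and 90.7 FPKM in DAC and 247 and 215 FPKM in DMSO on day 6. Of 12 tested genes that handle decitabine or its nucleotide pool 4 were lower over both days, RRM1, RRM2, TYMS and NME1. CDA, which deaminates the drug, was the 1 higher, at 1.2 to 1.56 FPKM in DAC and 0.0991 to 0.343 FPKM in DMSO. Among 18 genes of the methylation machinery 2 were lower, UHRF1 and CDCA7, and 1 higher, DNMT3L, a count that rests on few genes. DNMT3L had 0.512 to 1.04 FPKM in DAC and 0 to 0.0619 FPKM in DMSO. CDA and DNMT3L passed the filter on low values through their DAC libraries. DNMT3A and DNMT3B changed by −0.65 ± 0.10 and −0.74 ± 0.14 over both days, under the minimum of 1. Ribosomal protein genes (0 of 26 called) and oxidative phosphorylation genes (0 of 23 called) had no call in either direction over both days. Their changes were nevertheless below 0 in 25 of 26 (median −0.25) and in 21 of 23 (median −0.41), beside a median of −0.04 over all genes tested. Over all genes tested, 9569 had an unadjusted p under 0.05 in this comparison.

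Set against GSK032 at the same dose on day 6, 189 genes were higher in DAC (1.05%) and 224 lower (1.25%); the compounds were compared on day 6 and in their change between the days, 2 comparisons, each adjusted over all genes tested. Of the 31 gene lists the interferon list had the most members called: 0 of 43 members were higher and 35 lower in DAC than in GSK032 (median −1.74). IFI27 had 112 and 114 FPKM in DAC and 789.7 and 1454 FPKM in GSK032 (difference −3.24 ± 0.42, adjusted p = 1.8e-06). H19 had 18.5 and 12.7 FPKM in DAC and 0.332 and 0.138 FPKM in GSK032 (4.44 ± 0.29, adjusted p = 1.8e-11), and PRG2 had 84.7 and 96.5 FPKM in DAC and 18.9 and 19.3 FPKM in GSK032 (2.22 ± 0.44). LYZ had 2573 and 2503 FPKM in DAC and 7740 and 9119 FPKM in GSK032. For PHGDH the difference was −0.22 ± 0.19 and not called, and for class II genes 0 of 10 were called. In the change from day 4 to day 6, 21 genes exceeded GSK032 in DAC (0.117%) and 81 fell short of it (0.451%), with 22 interferon genes among the 81. C3 had 38.6 and 87.9 FPKM on day 4 and 43.8 and 29.6 FPKM on day 6 in DAC, and 9.19 and 11.0 FPKM on day 4 and 40.1 and 29.7 FPKM on day 6 in GSK032 (difference of changes −2.42 ± 0.42, adjusted p = 0.0025). The change between the days was also below that in GSK032 for CD101 (−1.51 ± 0.22), CRISPLD2 (−1.62 ± 0.32) and AXL (−1.57 ± 0.30). CD101 had 18.7 and 21.2 FPKM in GSK032 on day 6, against 13.2 and 12.4 FPKM in GSK032 on day 4. For JUN that difference was −0.99 ± 0.30 and not called (adjusted p = 0.15).

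The calls rest on 2 libraries a group. An exact permutation of the labels within each day has 36 arrangements and cannot give a two-sided p under 0.0556. Calls of the difference between days use the spread of all 52 MV411 libraries in 26 groups: with the 8 libraries alone, DDIT3 kept its call among the 206, 1 identifier without a gene name that is not among them was called, and 48 genes had an adjusted p under 0.1. In the authors' deposited table of log2 fold changes, all 2073 genes called on day 4 and all 2221 called on day 6 had the same sign as here, and PHGDH stood at −2.48 on day 4 and −4.62 on day 6. That table covers the same comparisons of the same series. For genes called at a change of at least 1 a like sign was nearly fixed, so it is no independent check.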

How the data were processed

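RNA of MV411 cells was sequenced as paired ends. The authors deposited FPKM per gene and library, which is normalized and is not a count; the submitters' processing notes name Salmon 0.12.0, DESeq2 and the build hg38. The authors' deposited log2 fold changes were used only for the comparison of signs. Sequencing depth was not given in the sources used here. When fragments were estimated from the steps of low FPKM values, 68.4 to 78.9% of them lay within 0.15 of a whole fragment, so no count test was run. GENCODE 29 named 56511 of 59939 identifiers (94.3%). Genes with at least 1 FPKM in 2 of the 8 libraries were tested on log2(FPKM + 0.5) with limma 3.58.1 in R 4.3.3, with a variance trend and Benjamini-Hochberg adjustment over 17967 genes; no sample was dropped or imputed. The late response used the 8 libraries with day as covariate; effects by day, their difference and the comparisons with GSK032 were contrasts of group means over all 52 MV411 libraries. The fits were tested on simulated data. The alternatives were other pseudocounts, filters, scalings and fits, a replicate block and leaving out each library.

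Growing or fading needed a called difference and a called effect on the later or earlier day. Named genes had a symbol, a coding or lncRNA annotation and a mean of at least 3 FPKM in a group: the 8 largest late changes in each direction that held in every fit leaving out 1 library, the 10 that grew most higher and 6 lower, the 10 that faded most, up to 6 called members of each gene list, and 4 methylation genes. Other list members named beside a count were chosen after their values were seen. 1 Y-linked gene taken by the rule is not described. The comparison and the 31 lists were chosen with earlier results of these data known.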

Additional observations from a re-analysis of the deposited data

Results flagged for a closer look

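The decitabine effect (DAC minus DMSO) differed between day 6 and day 4, by the contrast of the 2 effects in limma, for the named genes below. Each value is the day 6 effect minus the day 4 effect on the log2(FPKM + 0.5) scale.

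Above 0 stood Z83844.1 (10.61), which is listed at 0 in 5 of the 8 libraries, PRG2 (2.473), PTGDS (2.448), CD38 (1.975), H19 (1.744), CD1D (1.429), CILP2 (1.4), LYZ (1.302), SRGN (1.276) and HLA-DRA (1.218). The germline family members CT45A5 (1.762), GAGE1 (1.622), CT45A3 (1.5), PAGE2 (1.218) and PAGE5 (1.08) share reads with near-identical copies.

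Below 0, among amino acid stress genes, stood CHAC1 (-2.948), PHGDH (-2.019), ADM2 (-1.977), PCK2 (-1.968), CTH (-1.955), SLC7A11 (-1.847), CBS (-1.787), ALDH1L2 (-1.719), TRIB3 (-1.579), SESN2 (-1.525) and ATF3 (-1.273). Among genes that faded were ZFP36L1 (-1.961), CD101 (-1.85), JUN (-1.807), CADM1 (-1.722), C3 (-1.708), CRISPLD2 (-1.657), SELENOM (-1.644), GADD45G (-1.64), RASD1 (-1.61), AXL (-1.515), CDKN1C (-1.248) and KLF4 (-1.022). The remaining genes were CXCL10 (-1.738), OASL (-1.651), TNFAIP3 (-1.366), WIPI1 (-1.324), BMF (-1.166), VEGFA (-1.166), HIST1H2BJ (-1.158) and CLDN7 (-1.096).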

How the results depend on the processing

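Of the named genes' values under alternatives, 10907 kept direction and side of the threshold, 286 lost the call, 63 gained it and 0 reversed. With a filter at 5 FPKM, 674 genes were higher over both days, 631 on day 4 and 647 on day 6, the difference was above 0 for 25 and below 0 for 71, and 22 grew higher, 41 grew lower, 19 faded from higher and 1 from lower. With equal sums the difference was above 0 for 20, 17 grew higher and 1 faded from lower. With the 8 libraries only, the difference was above 0 for 0 and below 0 for 2; 0 grew higher, 2 grew lower, and 0 faded from higher or lower. The adjusted p alone gave 240 above and 288 below. Leaving out a library gave 1335 to 1398 higher and 706 to 794 lower over both days, 1280 to 1362 and 589 to 861 on day 4, 1314 to 1391 and 832 to 882 on day 6, and 37 to 59 above and 101 to 158 below for the difference, 101 being without replicate 2 of DMSO day 4. Genes that grew higher numbered 31 (without replicate 1 of DAC day 6) to 49, grew lower 56 to 89, faded from higher 23 (without replicate 2 of DMSO day 6) to 44, and faded from lower 0 to 3. The cause was not tested.

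Correlations of same-numbered deviations were 0.129 within day 4, 0.11 within day 6 and −0.20 to −0.07 between days, so the numbers were not used to pair samples across days; a shared number within a day, or numbers exchanged on 1 day, was not tested further. With a replicate block the difference was above 0 for 58 and below 0 for 157; with the day 6 numbers exchanged, chosen after seeing the data, for 63 and 165, and 5 faded from lower. With 2 libraries a group and no deposited depth, precision at low FPKM is limited.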
